A study of Homo sapiens with 24 samples.

Results

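The transcripts of MCF10A cells after 120 min of EGF were set against those before EGF was added, across all 3 transfections of the study. MCF10A is a human breast epithelial cell line that does not form tumours and that is usually kept in medium containing EGF. The samples were chosen by their time label alone: 6 arrays at 120 min and 6 arrays at 0 min, together 12 of the 24 arrays. The other 12, at 30 and 60 min, were used only to describe the path between these times and to check the labels.

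Each time held 2 arrays of cells given si-miR-20a, oligonucleotides directed at hsa-miR-20a, 2 of cells given si-miR-671, directed at hsa-miR-671-5p, and 2 of cells given si-control, a non-targeting oligonucleotide. Transfection therefore entered the model as a block, and each reported change is the average of the changes within the 3 transfections. All cells, those at 0 min included, had been transfected with Oligofectamine and grown in medium with EGF, insulin, cholera toxin, hydrocortisone and horse serum. The sources used here do not say whether EGF or serum was withdrawn before 0 min. No group was left without EGF until 120 min, so EGF cannot be told apart from the passage of time and the handling. The labels call the 2 replicates of a group biological but do not say whether they came from separate cultures, so the p-values measure the spread between these arrays, which may be technical. The mature microRNAs were not measured, and miR-212, which the protocol also names, was not analysed here because no sample carried its label.

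EGF binds the receptor tyrosine kinase EGFR, which dimerises with its ERBB relatives and switches on the RAS, RAF, MEK and ERK kinase cascade and the PI3K, AKT and mTOR pathway. ERK and its substrates first switch on immediate early genes, many of which encode transcription factors such as FOS, EGR and NR4A proteins. Their products and those of the next wave include phosphatases and adaptors that restrain the same cascade, mRNA decay factors, and secreted ligands that act on the cell itself or on its neighbours. In MCF10A cells EGF supports proliferation and migration.

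Values are log2 levels of Affymetrix probe sets as the authors deposited them, so a difference of 1 is a doubling. A gene was called higher or lower, and is said to have risen or fallen, where limma's test gave an adjusted p under 0.05 over all 19460 probe sets with exactly 1 gene symbol. Errors beside a change are standard errors of the model, over 6 arrays at 120 min against 6 at 0 min. Between the replicates of the 6 groups the correlation across probe sets ran from 0.9727 to 0.9901 and the SD from 0.184 to 0.305, highest in si-miR-671 cells at 120 min. Of 11 basal epithelial markers 11 lay above the median probe set at 0 min, against 7 of 16 luminal, 8 of 19 mesenchymal and 4 of 12 blood and endothelial markers. The arrays hold RNA of whole cultures, so fewer cells of a kind and less RNA per cell cannot be told apart.

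The later arrays labelled si-miR-671 stood apart from the earlier ones. Over the 40 probe sets with the widest gap between si-miR-20a and si-miR-671 arrays at 0 and 30 min, the arrays labelled si-miR-671 at 60 and 120 min lay nearer to the early si-miR-20a arrays at 28 to 30 probe sets. The later si-miR-20a arrays did so at 35 to 40 and the si-control arrays at 0 to 14. ACAT1, a mitochondrial thiolase, averaged 10.18 and 10.15 at 0 and 30 min in the arrays labelled si-miR-671, and 9.37 and 9.25 at 60 and 120 min. It averaged 9.25 to 9.33 in si-miR-20a cells and 10.09 to 10.28 in si-control cells. Of the 40 probe sets, those of CENPE, ELF3, NFIL3 and ZNFX1 were called between 120 and 0 min. What set the later si-miR-671 arrays apart was not tested. The calls over all probe sets and in the gene lists are therefore also given without the si-miR-671 arrays, over 4 arrays against 4, where a list's counts moved.

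After 120 min of EGF 857 probe sets were higher (4.4% of 19460) and 497 lower (2.55%), together 1354 (6.96%). By gene these were 820 rises and 465 falls among 18417 genes, and the rises reached further: 91 genes rose and 17 fell by at least 2-fold, and 14 rose and 1 fell by at least 4-fold. The median called rise was 0.45 and the median called fall -0.42 on the log2 scale, against a median of 0.008 over all probe sets. Of the called probe sets 369 changed by at least 1.5-fold (1.9%), 267 up (1.37%) and 102 down (0.524%). All 6 arrays at 120 min lay above all 6 at 0 min at 629 probe sets (3.23%) and below them at 186 (0.956%). The largest rises and falls below were named among called genes without overlap within any transfection, so their separation by array is a description. Without the si-miR-671 arrays 414 were higher (2.13%) and 144 lower (0.74%), and 522 of these 558 (2.87%) were among the 1354. The direction of change without those arrays was the same for all 1354, which were chosen with the remaining arrays included, so this is a description. List counts below stand beside 4.4% of all probe sets higher and 2.55% lower, or 2.13% and 0.74% without those arrays. The count of falls, 497, rested on single arrays more than that of rises. It was 285 without si-control 0 min replicate 1, 273 and 310 without si-miR-671 0 min replicates 1 and 2, 292 without si-miR-671 120 min replicate 1 and 280 without si-miR-20a 0 min replicate 1.

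The 3 transfections gave their own values for the same change. Alone, with 2 arrays against 2, si-miR-20a cells had 395 probe sets called (2.03%), 298 higher (1.53%) and 97 lower (0.498%). The arrays labelled si-miR-671 had 454 (2.33%), 296 higher (1.52%) and 158 lower (0.812%), and si-control cells had 247 (1.27%), 193 higher (0.992%) and 54 lower (0.277%). Both arrays at 120 min lay above both at 0 min in each of the 3 transfections at 1122 probe sets (5.77%), and below them at 763 (3.92%). The counts within a transfection moved with each of its own arrays. Without si-miR-20a replicates 1 and 2 they were 175 and 124 (0 min arrays) and 635 and 125 (120 min arrays), without those of si-miR-671 122 and 112 and then 219 and 158, and without those of si-control 103 and 93 and then 94 and 120. The si-miR-20a count was also 255 without either si-control array at 0 min and 246 without either si-miR-671 array at 0 min. No order of the transfections is read from these counts. The sign of the change was the same in each transfection for 856 of the 857 higher probe sets and for all 497 lower ones. The median change of the called rises was 0.50 in si-miR-20a, 0.46 in si-miR-671 and 0.44 in si-control cells, and that of the called falls -0.44, -0.48 and -0.36 in the same order. These probe sets were chosen on the average of the 3, so this is a description.

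**Figure D1:**
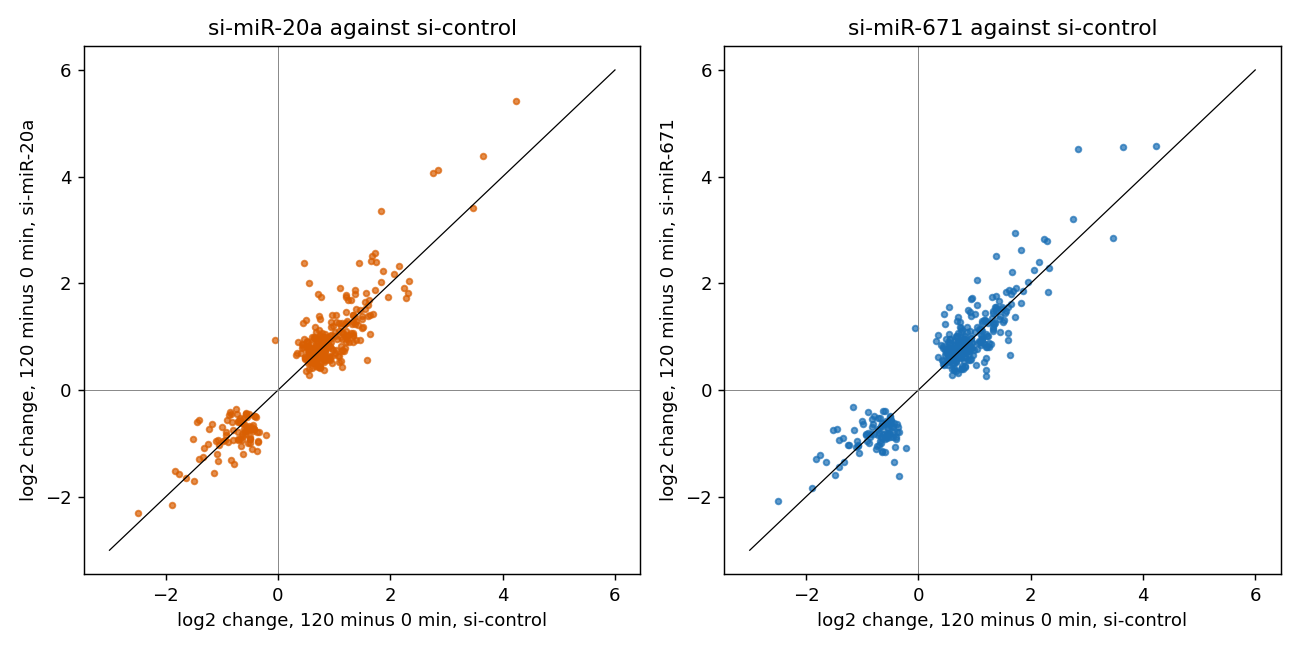
Change at 120 against 0 min in si-miR-20a (left) and si-miR-671 cells (right), on the vertical axes, against the change in si-control cells on the horizontal axes, in log2 units. Each point is 1 of the 352 genes called with a change of at least 1.5-fold, the line marks equal changes, and 1 gene, TNFSF18, lies left of 0 among the rises, with -0.06 in si-control cells.

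Immediate early transcription factors held the 3 largest rises at 120 min, those of FOSB, NR4A1 and EGR3. Of 28 measured members 22 were higher and 1 was lower (19 and 1 without si-miR-671), with a median change of 0.71 against 0.008 over all probe sets. The mean levels of FOSB, NR4A1, EGR3, NR4A3 and ATF3 at 0 min, and of SEMA7A, KRT23, SPRR2D and TNFSF18 below, lay under the arrays' lower quartile of 4.95 to 4.97, as did those of TNF, KLRC4-KLRK1, HBB and ZNF546 at 120 min. The deposited values carry no detection call, so no fold is given for these genes. FOSB, an AP-1 subunit, had a log2 level of 7.90 to 8.38 with a median of 8.08 in the 6 arrays at 120 min, against 2.55 to 3.98 with a median of 3.39 at 0 min. The arrays of the 2 times lay far apart, and FOSB rose by 4.74 ± 0.22 (adjusted p = 2.53e-07). The nuclear receptor NR4A1 had 8.50 to 9.28 with a median of 8.67 at 120 min, against 4.09 to 5.35 with a median of 4.45 at 0 min, a rise of 4.20 ± 0.18. EGR3, a zinc finger factor, had 7.20 to 8.98 with a median of 8.58 at 120 min, against 4.10 to 4.83 with a median of 4.44 at 0 min. Its lowest 120 min values were those of the si-control arrays, and it rose by 3.82 ± 0.24. NR4A3, related to NR4A1, had 5.02 to 5.72 with a median of 5.56 at 120 min, against 1.70 to 3.15 with a median of 2.20 at 0 min, and rose by 3.24 ± 0.16.

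FOSL1, an AP-1 subunit whose gene is itself an AP-1 and ERK target, had 8.07 to 8.38 with a median of 8.12 at 120 min, against 5.74 to 6.17 with a median of 5.93 at 0 min. Its times lay apart on every array, and it rose by 2.23 ± 0.08 (4.68-fold, adjusted p = 1.04e-07). ATF3 rose by 1.93 ± 0.17, CSRNP1 by 1.66 ± 0.11 and JUN by 1.23 ± 0.07. EGR1 rose by 0.98 ± 0.15, MYC by 0.58 ± 0.06 and SRF, which drives many immediate early genes, by 0.50 ± 0.07. FOS rose by 0.69 ± 0.12 and JUNB by 0.46 ± 0.09, and neither was called without si-miR-671. JUND, IER3, BHLHE40, FOSL2 and KLF2 did not pass, with changes from -0.14 to 0.37. HES1, a repressor of the Notch pathway that the list also holds, was the 1 member that fell. It had 7.55 to 7.80 with a median of 7.72 at 120 min, against 8.69 to 8.86 with a median of 8.76 at 0 min, a fall of 1.07 ± 0.07 on the log2 scale.

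**Figure D2:**
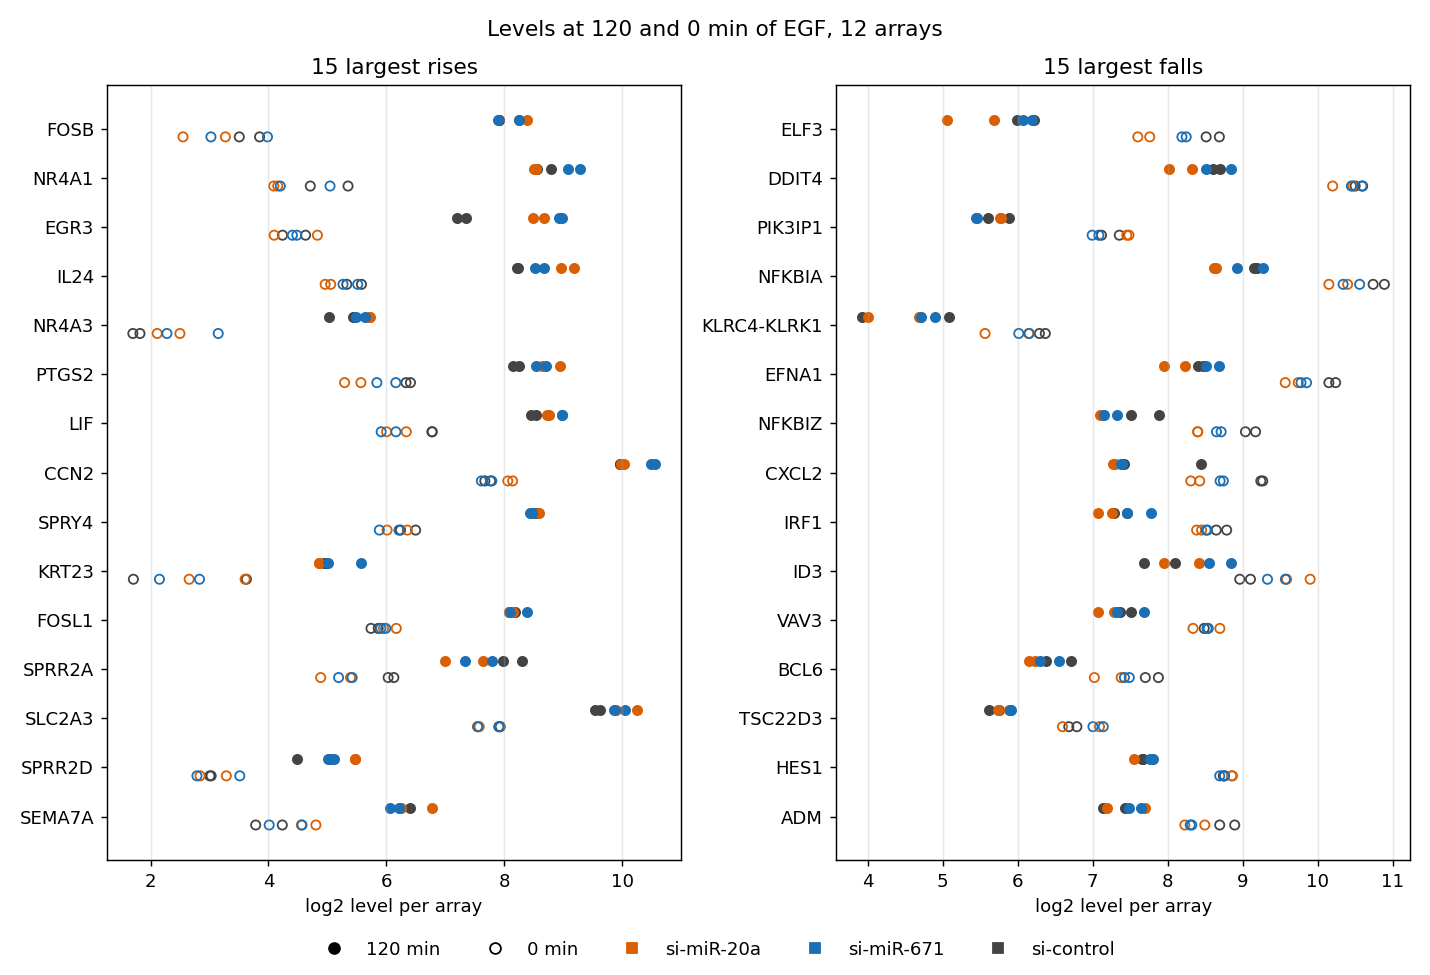
Log2 level (horizontal axes) of the 15 genes with the largest rises (left) and the 15 with the largest falls (right) among called genes whose arrays did not overlap within any transfection. Each gene has 6 filled points for 120 min and 6 open points for 0 min, coloured by transfection, and the 2 sets of 6 overlap in 1 of the 30 genes, CXCL2.

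The promoter of EGR1 is shown because it holds the serum response element core, the CArG box through which SRF is known to act on immediate early genes. It covers 250 bases before to 50 after the start in RefSeq (GRCh38.p14, chr5:138465229-138465528, plus strand), with CArG boxes in capitals:
EGR1: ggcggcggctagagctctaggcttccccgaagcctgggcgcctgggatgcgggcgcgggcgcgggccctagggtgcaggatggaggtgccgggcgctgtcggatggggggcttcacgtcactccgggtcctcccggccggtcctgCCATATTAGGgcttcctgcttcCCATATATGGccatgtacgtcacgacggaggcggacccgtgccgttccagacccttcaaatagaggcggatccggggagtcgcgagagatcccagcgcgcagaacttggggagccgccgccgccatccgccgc
The 2 CArG boxes lie close together before the start. Such boxes were found in 3 of 193 promoters of genes that rose by at least 1.5-fold (1.55%), in 0 of 66 of genes that fell by as much, and in 174 of 14239 promoters of all measured genes (1.22%). The cyclic AMP response element TGACGTCA was found in 3.11% of the rises, 1.52% of the falls and 2.65% of all, on either strand.

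Most inhibitors of ERK signalling on the list were higher. Of 19 feedback inhibitors 13 were higher and 0 lower (10 and 0 without si-miR-671), with a median change of 0.57. SPRY4, a Sprouty protein that blocks the step from receptors to RAS and RAF, had 8.44 to 8.59 with a median of 8.48 at 120 min, against 5.88 to 6.49 with a median of 6.23 at 0 min. Its arrays at 120 min lay close together and above all those at 0 min, and it rose by 2.30 ± 0.09 (4.91-fold, adjusted p = 1.04e-07). DUSP6, a cytoplasmic phosphatase of ERK, had 11.39 to 11.62 with a median of 11.44 at 120 min, against 9.54 to 9.88 with a median of 9.79 at 0 min, a rise of 1.73 ± 0.07. DUSP5, the nuclear ERK phosphatase, rose by 1.40 ± 0.10, DUSP7 by 0.97 ± 0.09 and DUSP4 by 0.91 ± 0.06. SPRED2, a Sprouty relative, rose by 0.84 ± 0.07. The members that did not pass included DUSP1, at 0.07 ± 0.14, SPRY1, at -0.24 ± 0.09, and DUSP16, at 0.06 ± 0.08. DUSP1 had 8.14 to 9.10 with a median of 8.82 at 120 min, against 8.38 to 8.82 with a median of 8.63 at 0 min, so its 2 times overlapped.

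Among the ERBB receptors and their direct inhibitors 1 of 12 was higher (8.33%) and 2 were lower (16.7%), with the same counts without si-miR-671. ERRFI1, which binds the kinase domain of EGFR and blocks it, had 9.55 to 10.68 with a median of 10.10 at 120 min, against 8.15 to 9.12 with a median of 8.59 at 0 min, and rose by 1.45 ± 0.08. LRIG3 fell by 0.69 ± 0.09 on the log2 scale and SOCS3, an inhibitor of cytokine receptors that also binds EGFR, by 0.70 ± 0.14. EGFR itself, at -0.11 ± 0.08, and ERBB2, at -0.02 ± 0.09, did not pass.

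Several ligands of these receptors were higher. Of 9 EGF family ligands 5 were higher and 0 lower (4 and 0 without si-miR-671), with a median change of 0.48. EREG, epiregulin, had 9.88 to 10.20 with a median of 10.04 at 120 min, against 7.91 to 8.51 with a median of 8.11 at 0 min, and rose by 1.91 ± 0.09 (3.76-fold, adjusted p = 3.3e-07). TGFA, transforming growth factor alpha, had 9.60 to 9.84 with a median of 9.67 at 120 min, against 8.07 to 8.35 with a median of 8.25 at 0 min, and rose by 1.48 ± 0.06. HBEGF, the heparin-binding ligand, had 10.04 to 10.69 with a median of 10.47 at 120 min, against 8.89 to 9.21 with a median of 9.06 at 0 min. None of these 3 overlapped between the times, and HBEGF rose by 1.36 ± 0.11. NRG1, a ligand of ERBB3 and ERBB4, rose by 1.41 ± 0.08, and by 1.10 at its other probe set. EPGN, epigen, rose by 0.48 ± 0.10 but was not called without si-miR-671, and BTC, NRG2, NRG4 and EGF did not pass.

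**Figure D3:**
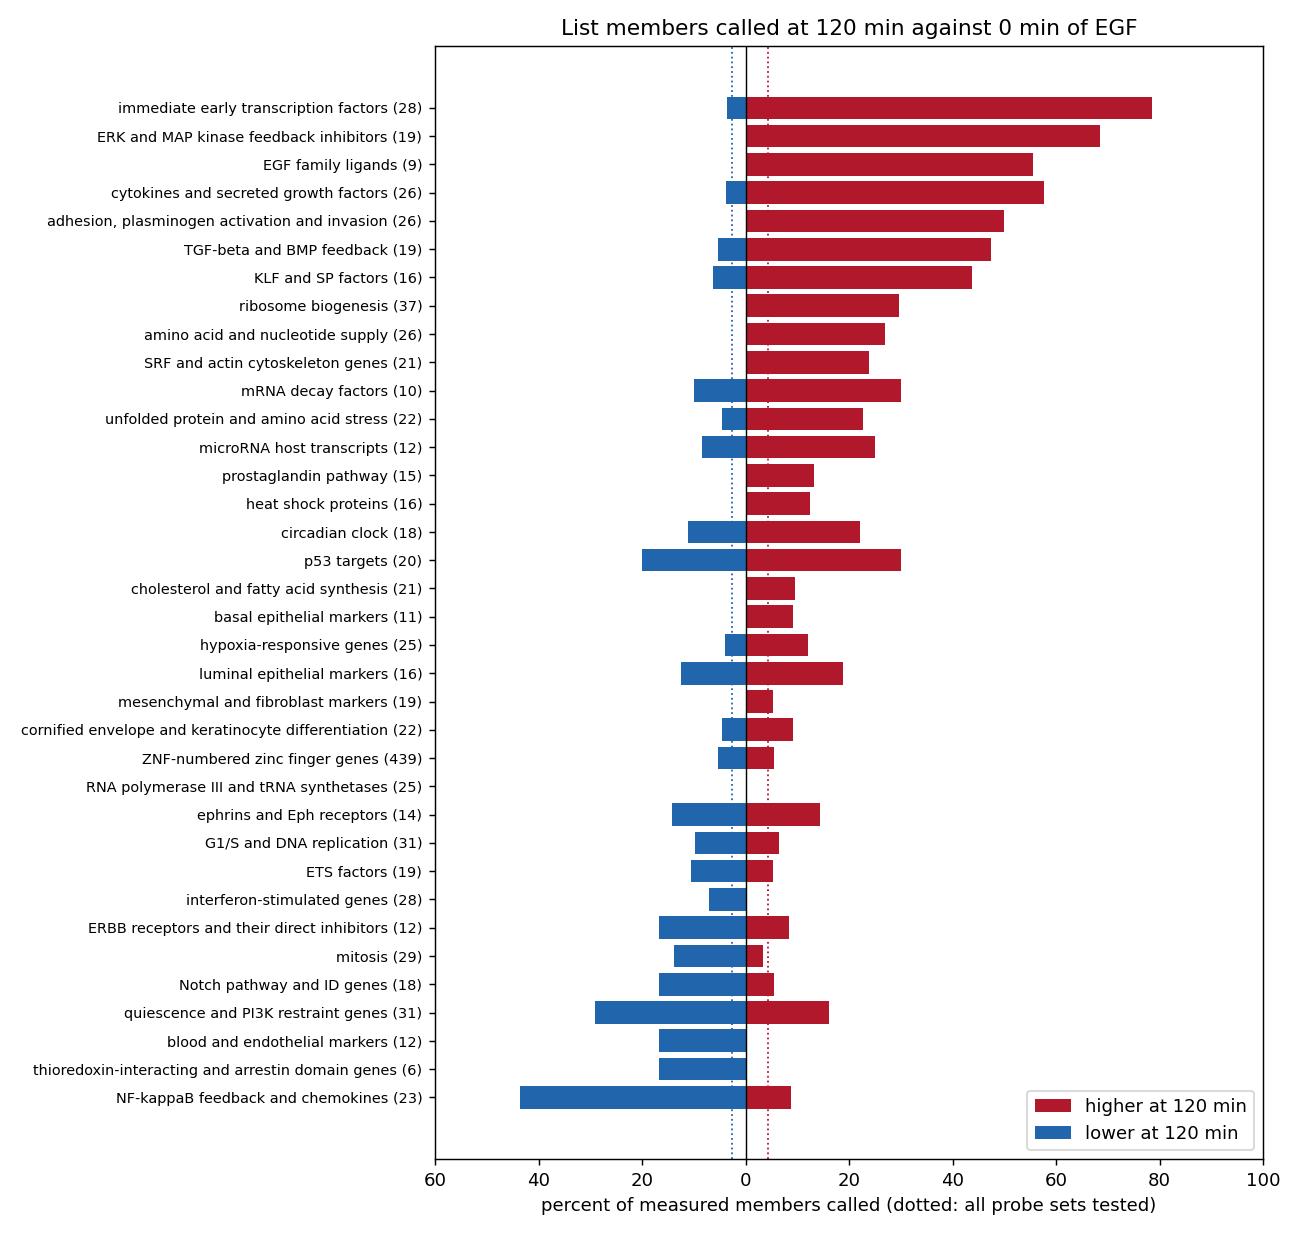
Percent of the measured members of 36 gene lists called higher (red, to the right) or lower (blue, to the left) at 120 against 0 min, with the number of measured members in brackets. The dotted lines mark the share of all 19460 probe sets called, 4.4% higher and 2.55% lower, and the longest bars are those of immediate early factors to the right (78.6%) and of NF-kappaB feedback and chemokine genes to the left (43.5%).

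Secreted cytokines and growth factors followed, of which 15 of 26 were higher and 1 was lower (13 and 0 without si-miR-671), with a median change of 0.55. IL24, a cytokine of the IL10 family, had 8.21 to 9.18 with a median of 8.59 at 120 min, against 4.96 to 5.58 with a median of 5.30 at 0 min. Its si-miR-20a arrays were the highest of the 6 at 120 min, and it rose by 3.34 ± 0.18 (10.2-fold, adjusted p = 4.74e-07). LIF, which signals through gp130, had 8.46 to 8.99 with a median of 8.75 at 120 min, against 5.91 to 6.78 with a median of 6.25 at 0 min, and rose by 2.42 ± 0.17. INHBA, the subunit of activin A, rose by 1.58 ± 0.09, ANGPTL4 by 1.56 ± 0.12, VEGFA by 0.83 ± 0.08, IL1B by 0.75 ± 0.07 and IL1A by 0.55 ± 0.08. IL6 fell by 0.74 ± 0.13 on the log2 scale and was not called without si-miR-671. In the prostaglandin pathway 2 of 15 were higher (13.3%), with and without si-miR-671. PTGS2, the inducible cyclooxygenase, had 8.15 to 8.95 with a median of 8.59 at 120 min, against 5.29 to 6.41 with a median of 5.998 at 0 min, a rise of 2.61 ± 0.20. PTGER4, a receptor of its product prostaglandin E2, rose by 1.23 ± 0.13.

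Genes of adhesion, plasminogen activation and invasion had 13 of 26 members higher and 0 lower (11 and 0 without si-miR-671), with a median change of 0.34. CCN2, a matricellular protein, had 9.96 to 10.56 with a median of 10.01 at 120 min, against 7.61 to 8.14 with a median of 7.78 at 0 min. The arrays labelled si-miR-671 were the highest at 120 min, and CCN2 rose by 2.33 ± 0.13. PLAUR, the urokinase receptor, had 9.51 to 9.90 with a median of 9.75 at 120 min, against 7.79 to 8.16 with a median of 8.03 at 0 min, and rose by 1.74 ± 0.08 (3.35-fold, adjusted p = 2.49e-07). SEMA7A, a membrane-anchored semaphorin that binds integrins, rose by 1.99 ± 0.14, thrombomodulin (THBD) by 1.09 ± 0.07, tissue factor (F3) by 0.96 ± 0.08, tenascin C (TNC) by 0.90 ± 0.09 and the integrin subunit ITGA2 by 0.50 ± 0.07. The urokinase gene PLAU, at 0.20 ± 0.10, and CD44, at 0.09 ± 0.06, did not pass. Of 21 SRF and actin cytoskeleton genes 5 were higher and 0 lower (4 and 0 without si-miR-671), led by TAGLN, the actin-binding transgelin, at 1.504 ± 0.09, and vinculin (VCL) at 0.56 ± 0.10.

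Several genes that NF-kappaB is known to switch on, and that restrain it or attract leukocytes, were lower. Of 23 measured 10 were lower, 2 higher and 11 not called (8 and 0 without si-miR-671), with a median change of -0.19. NFKBIA, which holds NF-kappaB in the cytoplasm, had 8.62 to 9.27 with a median of 9.04 at 120 min, against 10.15 to 10.89 with a median of 10.48 at 0 min, and fell by 1.54 ± 0.09 on the log2 scale (2.92-fold lower, adjusted p = 7.86e-07). NFKBIZ, a nuclear relative that steers NF-kappaB at chosen genes, had 7.10 to 7.89 with a median of 7.24 at 120 min, against 8.40 to 9.17 with a median of 8.68 at 0 min, a fall of 1.38 ± 0.07. IRF1, a transcription factor of inflammatory and interferon responses, had 7.08 to 7.78 with a median of 7.37 at 120 min, against 8.39 to 8.79 with a median of 8.52 at 0 min, a fall of 1.17 ± 0.09. For these 3 genes no array at 120 min reached any at 0 min, as at 0.956% of all probe sets. They were named among genes without overlap within any transfection, so this is a description.

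The chemokine CXCL2 had 7.27 to 8.44 with a median of 7.38 at 120 min, against 8.31 to 9.27 with a median of 8.72 at 0 min. Its times overlapped, through 1 si-control array at 120 min (8.44) and both si-miR-20a arrays at 0 min (8.43 and 8.31), while within each transfection they lay apart. CXCL2 fell by 1.25 ± 0.14 on the log2 scale. CCL2 fell by 1.04 ± 0.09, CXCL3 by 1.00 ± 0.11, CXCL1 by 0.84 ± 0.10 and TNFAIP3, a deubiquitinase that ends NF-kappaB signalling, by 0.97 ± 0.12. TNF fell by 0.71 ± 0.14 and TNFAIP2 by 0.57 ± 0.08, neither called without si-miR-671. CXCL8 was at -0.56 ± 0.22 and ICAM1 at -0.19 ± 0.12, and neither passed. The rises, also not called without si-miR-671, were those of the chemokine CCL20, at 1.42 ± 0.28, and the NF-kappaB subunit NFKB1, at 0.29 ± 0.08. NFKB1 also lost its call without each of 11 of the 12 arrays in turn.

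The promoters of 4 of these genes are shown because each holds a match to the kappaB site, the sequence that NF-kappaB binds. They run from 250 bases before to 50 after the start (RefSeq, GRCh38.p14), with the match on either strand in capitals: NFKBIA at chr14:35404700-35404999 (minus), NFKBIZ at chr3:101827740-101828039 (plus), CXCL2 at chr4:74099146-74099445 (minus) and IRF1 at chr5:132490724-132491023 (minus).
NFKBIA: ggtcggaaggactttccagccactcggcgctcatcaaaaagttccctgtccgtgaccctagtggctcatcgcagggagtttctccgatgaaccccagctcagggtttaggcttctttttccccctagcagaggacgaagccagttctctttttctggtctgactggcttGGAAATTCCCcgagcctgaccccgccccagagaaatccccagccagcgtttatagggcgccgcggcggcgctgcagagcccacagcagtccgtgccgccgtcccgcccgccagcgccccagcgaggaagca
NFKBIZ: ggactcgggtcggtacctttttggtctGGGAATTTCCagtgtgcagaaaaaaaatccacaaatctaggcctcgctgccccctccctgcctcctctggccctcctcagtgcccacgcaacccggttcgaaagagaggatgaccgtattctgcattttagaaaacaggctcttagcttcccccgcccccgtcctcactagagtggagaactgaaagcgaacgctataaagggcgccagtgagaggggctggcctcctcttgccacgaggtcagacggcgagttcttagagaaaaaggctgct
CXCL2: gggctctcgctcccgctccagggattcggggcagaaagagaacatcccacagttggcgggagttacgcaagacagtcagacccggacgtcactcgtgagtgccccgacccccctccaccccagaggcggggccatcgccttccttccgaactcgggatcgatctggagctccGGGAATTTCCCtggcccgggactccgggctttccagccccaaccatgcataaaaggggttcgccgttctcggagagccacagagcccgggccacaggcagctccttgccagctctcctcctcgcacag
IRF1: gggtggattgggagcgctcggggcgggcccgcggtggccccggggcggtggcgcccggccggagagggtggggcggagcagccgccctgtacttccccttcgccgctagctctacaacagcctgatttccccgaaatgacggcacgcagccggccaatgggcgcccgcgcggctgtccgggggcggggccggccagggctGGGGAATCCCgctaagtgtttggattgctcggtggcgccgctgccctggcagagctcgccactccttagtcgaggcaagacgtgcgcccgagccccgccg
In CXCL2 the capitals hold 2 overlapping matches. A kappaB match was found in the promoters of 15 of 66 genes that fell by at least 1.5-fold (22.7%), 13 of 193 that rose by as much (6.74%) and 917 of 14239 measured genes (6.44%). Among the largest falls 6 of 14 promoters held one, those of NFKBIA, NFKBIZ, CXCL2, IRF1, ELF3 and HES1. The motif was chosen with the falls of NF-kappaB genes known, the matches are a description of letters, and binding was not measured.

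The list of quiescence and PI3K restraint genes gave 9 falls and 5 rises of 31 (7 and 4 without si-miR-671). It also holds genes not known as such restraints, among them IRS1, IRS2 and TRIB1. DDIT4, an inhibitor of mTORC1, had 8.02 to 8.84 with a median of 8.56 at 120 min, against 10.20 to 10.60 with a median of 10.48 at 0 min, and fell by 1.97 ± 0.10 on the log2 scale (3.91-fold lower, adjusted p = 3.18e-07). PIK3IP1, a transmembrane inhibitor of PI3K, had 5.44 to 5.89 with a median of 5.69 at 120 min, against 6.99 to 7.48 with a median of 7.24 at 0 min, a fall of 1.59 ± 0.07. BCL6, a transcriptional repressor that FOXO factors are known to switch on, had 6.15 to 6.70 with a median of 6.34 at 120 min, against 7.02 to 7.88 with a median of 7.46 at 0 min, a fall of 1.10 ± 0.09. Each of the 3 kept the 2 times apart on every array, and was likewise named among genes without overlap within any transfection. SESN1, a stress sensor that restrains mTORC1, fell by 0.88 ± 0.09 and CDKN1B, the cell cycle inhibitor p27, by 0.71 ± 0.08. The members that rose were TRIB1, a pseudokinase, at 1.83 ± 0.10, the insulin receptor substrates IRS2, at 0.72 ± 0.10, and IRS1, at 0.70 ± 0.09, and GADD45A and GADD45B, of which GADD45B was not called without si-miR-671. TXNIP, which lowers glucose uptake, fell by 0.92 ± 0.13, from a list of 6 thioredoxin-interacting and arrestin domain genes in which the other 5 did not pass.

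The largest fall was that of ELF3, an epithelial ETS factor. ELF3 had 5.06 to 6.21 with a median of 6.03 at 120 min, against 7.60 to 8.69 with a median of 8.22 at 0 min, and fell by 2.30 ± 0.11 on the log2 scale (4.92-fold lower, adjusted p = 3.3e-07). It belongs to the 40 probe sets of the label check, and its change was -2.31 in si-miR-20a, -2.08 in si-miR-671 and -2.50 in si-control cells. Of the 19 ETS factors EHF also fell, by 0.50 ± 0.10, and ETS1 rose by 0.36 ± 0.07 (10.5% lower and 5.26% higher). Neither was called without si-miR-671, where 1 member fell and 1, another member, rose. EFNA1, an ephrin ligand tethered to the membrane, had 7.95 to 8.69 with a median of 8.44 at 120 min, against 9.57 to 10.24 with a median of 9.82 at 0 min, a fall of 1.51 ± 0.10. EPHA2, the receptor of EFNA1, rose by 0.89 ± 0.08. Of 18 Notch and ID genes 3 fell (16.7%) and 1 rose (5.56%), with the same counts without si-miR-671. The falls were those of ID3, an inhibitor of basic helix-loop-helix factors, by 1.15 ± 0.15, HES1, and the Notch ligand DLL1 by 0.74 ± 0.08. The ligand JAG1 rose by 0.62 ± 0.08.

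The other large falls came from no single list. KLRC4-KLRK1, a read-through transcript whose probes can also read KLRK1, fell by 1.54 ± 0.20 on the log2 scale. VAV3, a guanine nucleotide exchange factor, fell by 1.14 ± 0.10 and TSC22D3, a glucocorticoid-induced leucine zipper protein, by 1.08 ± 0.09. ADM, the vasodilator adrenomedullin and a hypoxia-responsive gene, fell by 1.06 ± 0.14. In the hypoxia list 3 of 25 rose (12%) and 1 fell (4%). The rises were those of SLC2A3, the glucose transporter GLUT3, VEGFA and HK2, the last not called without si-miR-671. SLC2A3 had 9.54 to 10.25 with a median of 9.88 at 120 min, against 7.55 to 7.93 with a median of 7.74 at 0 min, a rise of 2.13 ± 0.13, which its near copy SLC2A14 may share on these probes.

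Factors and feedback genes of neighbouring pathways were called as well. Of 16 KLF and SP factors 7 rose (43.8%) and 1 fell (6.25%), and 5 and 0 without si-miR-671. The rises were led by KLF7 at 1.41 ± 0.07 and KLF6 at 1.02 ± 0.10. Of 19 genes of TGF-beta and BMP feedback 9 rose (47.4%) and 1 fell (5.26%), and 6 and 0 without si-miR-671. These included follistatin (FST), which binds activin, at 1.40 ± 0.09, and the inhibitory SMAD7 at 0.94 ± 0.09. Among 10 mRNA decay factors ZFP36L2, which promotes decay of AU-rich mRNAs, rose by 1.08 ± 0.07 and ZC3H12A, an endonuclease, fell by 0.77 ± 0.07. ZFP36L1 and TOB2 rose too, TOB2 not called without si-miR-671. ZFP36 itself, at 0.27 ± 0.08, did not pass.

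Growth-related lists held few calls beyond ribosome biogenesis and nutrient supply. Of the called genes 1 of ribosome biogenesis and 2 of supply rose by at least 1.5-fold. Of 37 ribosome biogenesis genes 11 were higher and 0 lower, with a median change of 0.22, but 4 were called without si-miR-671, with a median of 0.20. The largest was RRP12, at 0.59 ± 0.07, and DDX21, a nucleolar helicase, rose by 0.40 ± 0.07. Of 26 genes of amino acid and nucleotide supply 7 were higher (3 without si-miR-671). Among them were the phosphate transporter SLC20A1, at 0.91 ± 0.06, and ODC1, the first enzyme of polyamine synthesis, at 0.69 ± 0.06. Of 25 genes of RNA polymerase III and tRNA synthetases 0 were called, with a median change of 0.03, and limma gave 6 of them an unadjusted p under 0.05. Of 21 cholesterol and fatty acid genes 2 were higher (9.52%) and 0 lower, and 2 (9.52%) and 1 (4.76%) without si-miR-671. INSIG1, which retains the SREBP complex, rose by 0.70 ± 0.07 and HMGCS1, an early enzyme of the pathway, by 0.56 ± 0.07.

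Cell cycle calls were fewer without the si-miR-671 arrays, as were calls over all probe sets. Of 29 mitosis genes 4 were lower (13.8%, against 2.55% of all probe sets) and 1 higher, with a median change of -0.18. Without si-miR-671 limma called 0, with 15 at an unadjusted p under 0.05 and a median of -0.23. By transfection the median was -0.18 in si-miR-20a, -0.10 in si-miR-671 and -0.26 in si-control cells. Of 31 genes of G1/S and DNA replication 3 fell (9.68%) and 2 rose (2 and 1 without si-miR-671). CDT1, which licenses replication origins, fell by 0.74 ± 0.13 on the log2 scale and ORC1, an origin recognition subunit, by 0.54 ± 0.07, while the repressor E2F7 rose by 0.56 ± 0.10. CCND1, cyclin D1, was called at 0.38 ± 0.10 but lost its call without each of 10 of the 12 arrays in turn.

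Stress lists were mixed. Of 20 p53 targets 6 rose (30%) and 4 fell (20%), and 2 (10%) and 3 (15%) did without si-miR-671. PLK3 was among the rises, at 0.84 ± 0.08, and SESN1 among the falls, at -0.88 ± 0.09. Of 22 genes of unfolded protein and amino acid stress 5 rose (22.7%) and 1 fell (4.55%), and 3 and 0 without si-miR-671. CHAC1 rose by 0.84 ± 0.13 and TRIB3 by 0.76 ± 0.10. Of 16 heat shock genes 2 rose (12.5%, against 4.4% of all probe sets), and 0 without si-miR-671, where limma gave 4 an unadjusted p under 0.05. Of 28 interferon-stimulated genes 2 fell (7.14%, against 2.55% of all probe sets), IFIT2 by 0.88 ± 0.08 and IFIT3 by 0.45 ± 0.10. Without si-miR-671 IFIT3 was not called but another member was, so 2 fell there too (7.14%, against 0.74% of all). In the circadian clock 4 of 18 rose (22.2%) and 2 fell (11.1%), and 3 and 1 without si-miR-671. The repressors CRY1 and PER2 rose by 0.79 ± 0.09 and 0.64 ± 0.06, and BMAL1, the activator they restrain, by 0.70 ± 0.09, while NFIL3, one of the probe sets of the label check, fell by 0.80 ± 0.11.

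The lists of cell identity markers differed in their share of calls. Of 22 cornified envelope genes 2 rose (9.09%) and 1 fell (4.55%), the same as without si-miR-671. The fall, that of TGM1, lost its call without each of 9 of the 12 arrays in turn. SPRR2A, a small proline-rich precursor of that envelope, had 6.99 to 8.30 with a median of 7.71 at 120 min, against 4.89 to 6.13 with a median of 5.41 at 0 min, and rose by 2.16 ± 0.14. SPRR2D, a near copy whose probes may read the same transcripts, rose by 2.02 ± 0.16, and KRT23, a keratin, by 2.27 ± 0.31. Among 16 luminal markers 3 rose (18.8%) and 2 fell (12.5%), against 4.4% and 2.55% of all probe sets. Without si-miR-671 3 rose (18.8%) and 1 fell (6.25%), against 2.13% and 0.74% of all. FOXA1, a pioneer factor, rose by 1.27 ± 0.10 and GATA3 fell by 0.59 ± 0.08. Of 11 basal markers LAMB3 alone was called (9.09%), at 0.32 ± 0.08, and not without si-miR-671. Of 19 mesenchymal markers SNAI2, a repressor of E-cadherin, alone was called (5.26%). SNAI2 had 10.38 to 10.81 with a median of 10.56 at 120 min, against 9.42 to 9.60 with a median of 9.55 at 0 min, a rise of 1.04 ± 0.08. Of 12 blood and endothelial markers HBB, at -0.43 ± 0.09, and CD14, at -0.40 ± 0.08, were called (16.7%). Without si-miR-671 0 were called, and limma gave 2 an unadjusted p under 0.05. The mean level of that list ran from 6.34 to 6.55 over the arrays at 120 min, against 6.30 to 6.49 at 0 min. Among 439 zinc finger genes named ZNF and a number 24 rose (5.47%) and 23 fell (5.24%), against 4.4% and 2.55% of all probe sets. Without si-miR-671 12 rose (2.73%) and 3 fell (0.683%), against 2.13% and 0.74% of all. The most changed were ZNF365 at 1.52 ± 0.09 and ZNF546 at -0.91 ± 0.08.

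The promoter of SPRR2A is shown for its AP-1 site, the sequence that FOS and JUN proteins bind (RefSeq, GRCh38.p14, chr1:153057463-153057762, minus strand), with TGANTCA in capitals:
SPRR2A: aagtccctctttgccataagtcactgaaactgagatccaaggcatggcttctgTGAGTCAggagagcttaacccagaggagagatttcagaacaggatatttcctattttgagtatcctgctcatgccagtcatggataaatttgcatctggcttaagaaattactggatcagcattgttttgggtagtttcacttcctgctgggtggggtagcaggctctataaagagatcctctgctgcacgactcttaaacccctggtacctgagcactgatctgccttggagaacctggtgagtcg
TGANTCA on either strand was found in 18 of 193 promoters of the rises of at least 1.5-fold (9.33%), in 1 of 66 of such falls (1.52%) and in 795 of 14239 of all measured genes (5.58%). These shares are descriptions of the letters in windows of 300 bases.

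The path to the 120 min level differed between genes. Of 260 genes that rose by at least 1.5-fold, 224 were furthest from 0 min at 120 min, 35 at 60 min and 1 at 30 min, and their median change was 0.15 at 30, 0.46 at 60 and 0.85 at 120 min. Of 92 genes that fell by as much, 90 were lowest relative to 0 min at 120 min and 2 at 60 min, with median changes of -0.04, -0.17 and -0.74. These genes were chosen at 120 min, so the order of the medians is a description. FOS, at levels of 6.91, 10.9, 10.0 and 7.59 at 0, 30, 60 and 120 min, and EGR1, at 7.93, 11.03, 11.35 and 8.91, had come most of the way down by 120 min. FOSB had 3.36, 9.01, 9.09 and 8.10 and stayed high. SPRY4, at 6.20, 6.51, 7.71 and 8.49, TGFA, at 8.22, 8.28, 8.62 and 9.69, and SNAI2, at 9.53, 9.57, 9.65 and 10.6, were highest at 120 min.

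Several falls at 120 min followed higher levels at 30 or 60 min. HES1 had mean levels of 8.78, 9.51, 10.0 and 7.70 at 0, 30, 60 and 120 min. NFKBIZ had 8.73, 9.42, 9.12 and 7.35, and CXCL2 had 8.78, 9.39, 9.05 and 7.53. ADM had 8.49, 9.04, 8.39 and 7.43. DDIT4, at 10.5, 10.3, 9.93 and 8.50, and PIK3IP1, at 7.25, 7.11, 6.72 and 5.65, were lower at each later time. DUSP1, not called at 120 min, had 8.61, 11.15, 10.96 and 8.69.

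**Figure D4:**
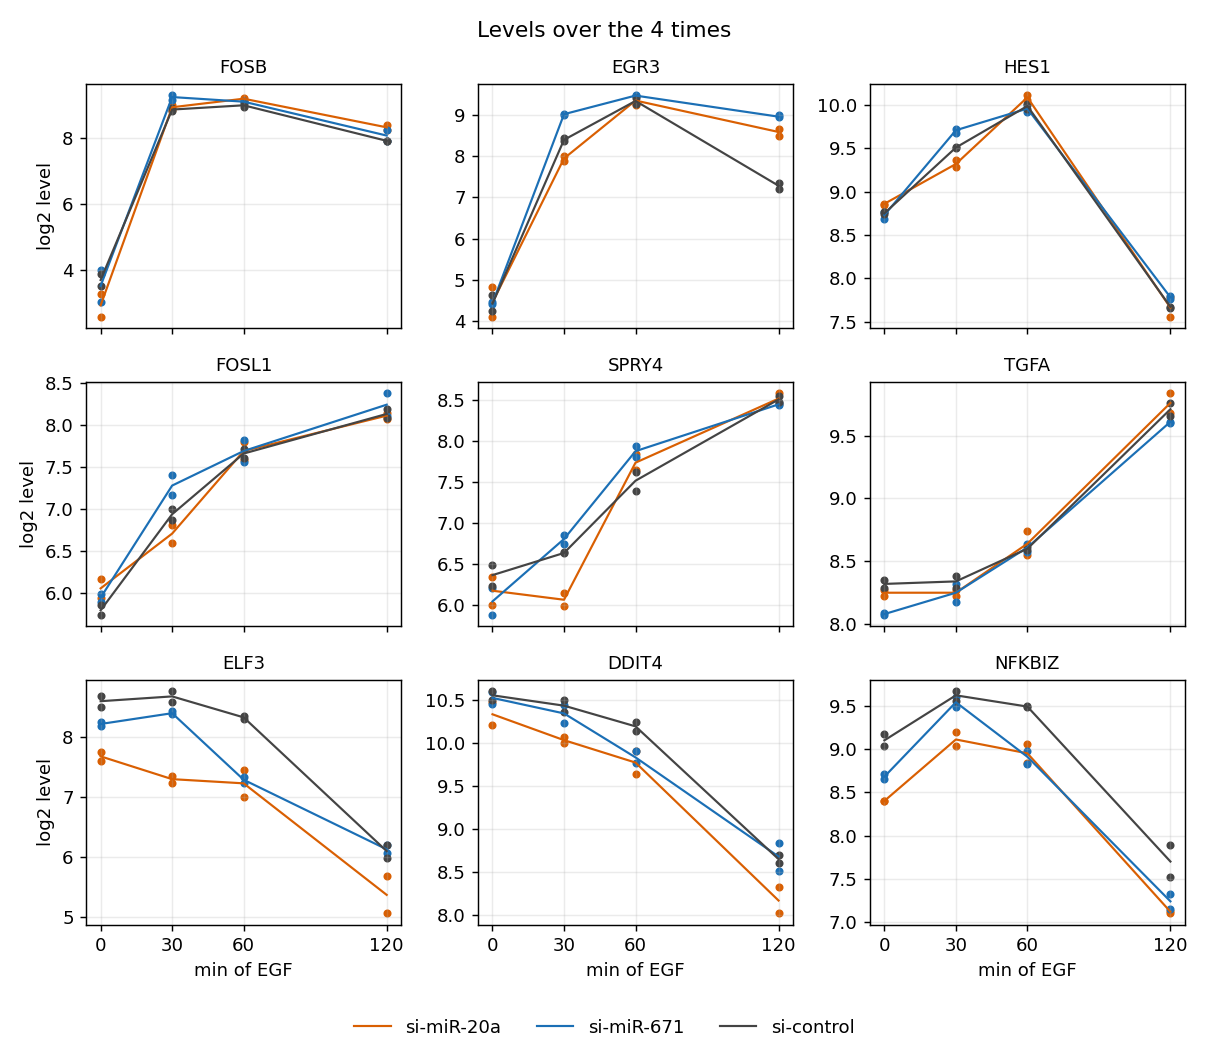
Log2 level (vertical axes) at 0, 30, 60 and 120 min of EGF (horizontal axes) for 9 genes, with 1 point per array and lines through the mean of the 2 arrays of each transfection. FOSB and EGR3 peak at 30 or 60 min and stay above 0 min, FOSL1, SPRY4 and TGFA are highest at 120 min, HES1 and NFKBIZ are high at 30 or 60 min and below 0 min at 120 min, and ELF3 and DDIT4 are lowest at 120 min.

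Some transcripts of microRNA genes were higher at 120 min. In the list of 12 microRNA host transcripts 3 rose (25%) and 1 fell (8.33%), and 2 and 0 without si-miR-671. MIR17HG, the primary transcript of the cluster that holds miR-20a on chromosome 13, rose by 0.84 ± 0.12, by 1.02 in si-miR-20a, 0.48 in si-miR-671 and 1.02 in si-control cells. MIR31HG rose by 0.33 ± 0.09 and lost its call without each of 11 of the 12 arrays in turn. Among microRNA genes chosen after their values were seen, MIR100 and MIRLET7A2 rose beside BLID, a gene at the same locus. In GRCh38.p14 MIR100 (chr11:122152229-122152308), MIRLET7A2 (chr11:122146522-122146593) and BLID (chr11:122115340-122116215) all lie inside MIR100HG (chr11:122028329-122422871). MIR31 (chr9:21512115-21512185) lies inside MIR31HG (chr9:21454268-21559798).

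The mature microRNAs of these loci are shown so that their seeds (bases 2 to 8, in capitals) can be compared, beside that of miR-20a. The sequences are RefSeq's, and the arrays did not measure them:
miR-20a-5p: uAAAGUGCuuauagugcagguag
miR-100-5p: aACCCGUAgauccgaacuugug
let-7a-5p: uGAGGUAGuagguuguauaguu
miR-31-5p: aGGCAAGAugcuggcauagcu
No 2 of the 4 share a seed. MIR100 had a log2 level of 6.67 to 7.31 with a median of 7.02 at 120 min, against 5.04 to 5.83 with a median of 5.39 at 0 min, and rose by 1.58 ± 0.10 (2.99-fold, adjusted p = 1.45e-06). MIRLET7A2 had 6.80 to 7.48 with a median of 7.32 at 120 min, against 5.56 to 6.02 with a median of 5.79 at 0 min, a rise of 1.42 ± 0.12. BLID had 7.69 to 8.20 with a median of 7.95 at 120 min, against 6.08 to 6.61 with a median of 6.42 at 0 min, a rise of 1.56 ± 0.07. For all 3 the arrays labelled si-miR-671 were the lowest at 120 min, and the 2 times did not overlap. MIR31 had 6.10 to 6.68 with a median of 6.28 at 120 min, against 4.48 to 5.58 with a median of 4.98 at 0 min, a rise of 1.31 ± 0.14. Whether these probe sets read a hairpin, its precursor or the host transcript cannot be told apart here.

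**Figure D5:**
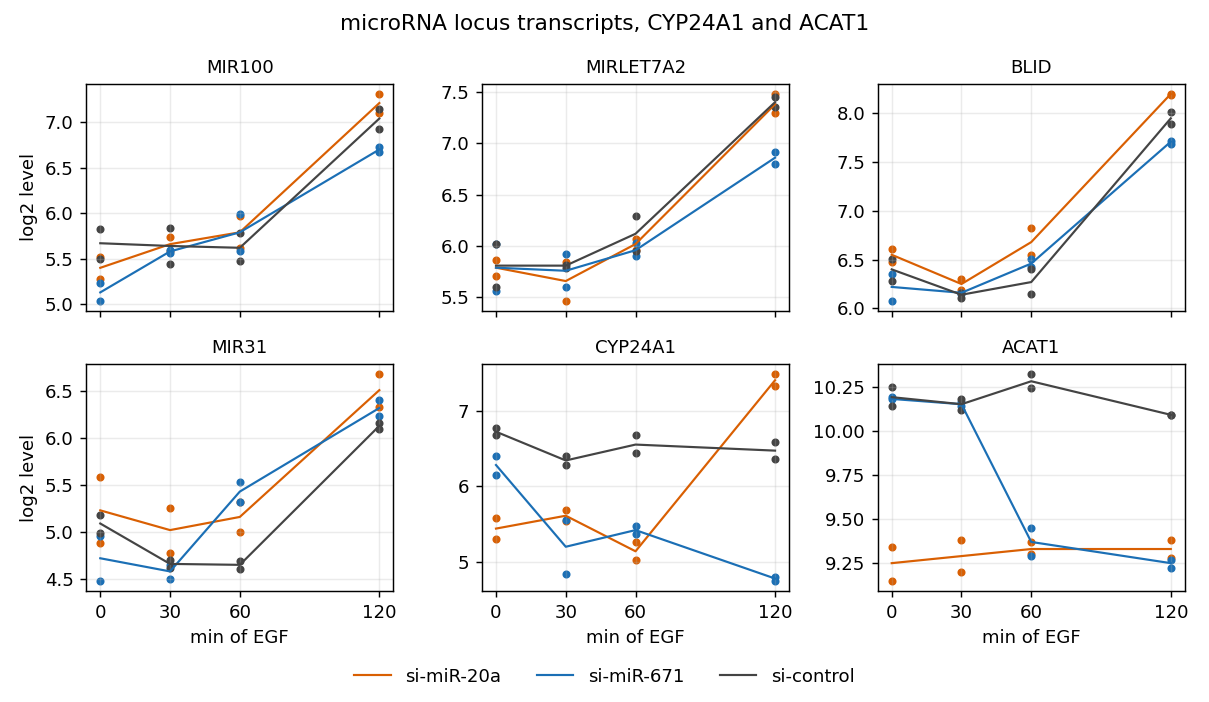
Log2 level (vertical axes) of MIR100, MIRLET7A2, BLID, MIR31, CYP24A1 and ACAT1 at 0, 30, 60 and 120 min of EGF (horizontal axes), with 1 point per array and lines through the mean of each transfection. The first 4 rise between 60 and 120 min in each transfection, CYP24A1 takes a different course in each, and ACAT1 in the arrays labelled si-miR-671 is lower late (60 and 120 min) than early.

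A difference of the change between transfections was called at 1 of 19460 probe sets (0.00514%), that of CYP24A1, the enzyme that inactivates vitamin D, with limma's moderated F. Counting CYP24A1, 1340 probe sets had an unadjusted p under 0.05. CYP24A1 had 7.32 and 7.48 at 120 min against 5.58 and 5.30 at 0 min in si-miR-20a cells, 4.75 and 4.80 against 6.15 and 6.40 in si-miR-671 cells, and 6.58 and 6.36 against 6.67 and 6.77 in si-control cells. Its change was 1.96 in si-miR-20a, -1.501 in si-miR-671 and -0.25 in si-control cells (adjusted p = 0.00208). The 9 genes with the next smallest p were OR2C3, AMOT, CXCL8, ACAT1, LOC284379, TNFSF18, IL24, PTGS2 and LIF, all at an adjusted p of 0.416. Among them IL24 changed by 4.06 in si-miR-20a, 3.20 in si-miR-671 and 2.76 in si-control cells, and CXCL8 by 0.25, -0.48 and -1.44, differences that did not pass the correction.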

How the data were processed

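The study holds 24 arrays of MCF10A RNA (Affymetrix Human Gene 1.0 ST), of which 12 entered the comparisons. The authors deposited log2 values, made with Affymetrix Expression Console per the submitters' processing notes. Its version, summarisation and normalization are not given in the sources used here. Array medians lay between 6.562 and 6.572, so the values were used as deposited. Of 33297 probe sets 19460 had exactly 1 symbol and were tested, covering 18417 genes, and 1754 with several symbols and 12083 with none were left out. Where a gene had several, the one with the highest 12-array mean stood for it. The probe sets of NRG1 and TGIF1, which have several, moved the same way. Those of TGIF1 had identical values, a change of 0.623, except for the last, at 0.533, so they are not all separate measurements.

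Changes were fitted with limma 3.58.1 in R 4.3.3 (lmFit, transfection as a block, and eBayes, with Benjamini-Hochberg adjustment; residual degrees of freedom 8, prior 3.42). Changes within a transfection and the moderated F for differences between them came from a fit with 1 mean per group. Those within-transfection calls rest on the spread pooled over 6 groups, since an exact permutation of 2 against 2 arrays cannot go below 0.33. Scripts were tested on simulated data. Tables and figures used Python 3.11.15, numpy 2.4.6, pandas 2.3.3 and matplotlib 3.10.9.

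Same-numbered replicates did not deviate in a common direction. The 15 correlations between groups spanned -0.57 to 0.34 (median 0.012), 5 of them above 0.1, so no pairing was used. The extremes were si-miR-671 at 120 min with si-miR-20a at 0 min (-0.57) and both of these transfections at 0 min (0.34). Whether arrays of different groups share a batch in another order of the replicates was not tested. The number of arrays limits the precision. The genes and lists were chosen with earlier results of these data known. Named were the 15 largest rises and falls among called genes whose arrays did not overlap within any transfection, the 10 smallest p for differences between transfections, and up to 4 called members of each list and direction. Any other gene is a list member or was picked with its values in view. Alternatives left out arrays, transfections or low values, added a replicate block, or changed the scaling, weights, prior, probe sets or fit.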

Additional observations from a re-analysis of the deposited data

Results flagged for a closer look

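The change of CYP24A1 at 120 against 0 min differed between the transfections, with a limma moderated F at an adjusted p of 0.0021 over 19460 probe sets. Its level was higher at 120 min in both si-miR-20a arrays, lower in both arrays labelled si-miR-671, and lower by less in the si-control arrays, at 1.96, -1.50 and -0.25 on the log2 scale. The si-miR-671 arrays stood apart between early and late times, and their part in this result was not tested. The averaged change was 0.07 ± 0.43, which did not pass (adjusted p = 0.956).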

How the results depend on the processing

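The 1354 calls became 1390 with 1 mean per group on the 12 arrays, 1377 with median centring, 1396 with quantile normalization, 1345 with the filter on low values, 1634 with trended robust eBayes, 1578 with array weights, 1333 over all probe sets and 925 to 1251 with 1 array left out. They became 2607 (1387 higher, 1220 lower) when all 24 arrays were fitted, 558 (414 and 144) without si-miR-671, and 369 (267 and 102) where a call also needed 1.5-fold. Higher calls ran from 652 to 766 and lower ones from 273 to 506 with 1 array left out. With the replicate block, which the numbers do not justify as a pairing, 1173 were called, 778 higher and 395 lower. The block gave 307 calls in si-miR-20a, 335 in si-miR-671 and 192 in si-control cells alone, and 1 for the difference between transfections.

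Within si-miR-20a the 395 calls became 1486 in the fit of 24 arrays and 124 to 635 with 1 array left out. Within si-miR-671 the 454 became 1158 and 112 to 409, and within si-control the 247 became 576 and 93 to 229. The difference between transfections was called at 30 probe sets in the fit of 24 arrays, at 0 with the filter, which left out CYP24A1 (888 of 9730 at an unadjusted p under 0.05), and at 1 to 4 with 1 array left out. Of 144 named called genes 122 kept their call without every single array, 22 lost it without at least 1, 42 lost it without si-miR-671, and 0 changed direction. Lists that lost calls without si-miR-671 included ribosome biogenesis (4 rises against 11), mitosis (0 falls against 4) and ZNF genes (12 rises and 3 falls against 24 and 23). That fit held 8 arrays rather than 12, and all probe sets lost calls too, with 414 rises and 144 falls against 857 and 497. No other transfection was left out in the same way. The cause of these shifts was not tested. The deposited values carry no signal over background, so low levels have no detection limit here.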

Other observations

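Some histone genes were lower at 120 min. The histone genes, named H1-, H2A, H2B, H3C or H4C, were grouped after their values were seen. Of 63 measured 12 were lower (19.0%) and 0 higher, against 2.55% lower among all probe sets, with a median change of -0.27. Without si-miR-671 10 were lower (15.9%, against 0.74% of all) and the median was -0.41, and by transfection it was -0.46 in si-miR-20a, -0.09 in si-miR-671 and -0.42 in si-control cells. H3C1 fell by 0.76 ± 0.15 on the log2 scale and H1-3, a linker histone, by 0.65 ± 0.10. Many histone genes are close copies and share probes: H4C14 and H4C15 had the same change, -0.51.

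Small nucleolar RNA genes, which guide modification of ribosomal RNA, gave 16 falls (9.09%, against 2.55% of all probe sets) and 2 rises (1.14%) of 176 measured. Without si-miR-671 the counts were 8 (4.55%, against 0.74% of all) and 0, and the median change was -0.04 against -0.09 with those arrays. By transfection the median was -0.02 in si-miR-20a, -0.18 in si-miR-671 and -0.05 in si-control cells.

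Of 161 microRNA genes 10 were higher (6.21%, against 4.4% of all probe sets) and 4 lower (2.48%, against 2.55%). These shares were near those of all probe sets. Without si-miR-671 10 were higher (6.21%, against 2.13% of all) and 3 lower (1.86%, against 0.74%), so there the shares lay above those of all. Beside those given above, MIR221 rose by 0.86 ± 0.08 and MIR222, its neighbour on the X chromosome, by 0.89 ± 0.12, with MIR29A at 0.58 ± 0.11 and MIR15A at -0.72 ± 0.12. MIR221 had mean levels of 7.69, 7.93, 8.39 and 8.55 at 0, 30, 60 and 120 min, and MIR222 4.90, 5.16, 5.74 and 5.78. The levels of MIR222 and MIR29A at 0 min lay under the arrays' lower quartile.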
